A study of Mus musculus with 2 samples.

Results

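The tumour suppressor p53 is a transcription factor that is kept scarce by the ubiquitin ligase MDM2 and is stabilized by DNA damage and other stresses. It then binds pairs of a degenerate decamer in its target genes, whose products arrest the cell cycle, repair DNA, adjust metabolism or kill the cell, and some of which act back on p53 itself. In haematopoietic stem cells p53 is known for holding cells in quiescence and for removing cells with damaged DNA.

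The 35 genes described here are p53 (Trp53), its regulators MDM2 and MDM4 and well-known targets, chosen by name. A gene was measured when a probe set of the array carried its symbol alone, which held for 30 of the 35 among 22180 genes in all. For Gadd45a and Ddb2 the only probe set was shared with another gene, and Trp53, Fdxr and Gdf15 had none in the annotation used, so these 5 genes were not analysed here. The 30 genes had 1 such probe set each. A further probe set that pairs Zmat3 with another gene was left out.

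The question of the study was how Pot1a, a shelterin protein that binds the single-stranded DNA of telomeres, affects DNA damage responses in long-term haematopoietic stem cells (LT-HSCs). LT-HSCs (lineage-negative, Sca-1+, c-Kit+, CD48-, CD150+) came from the bone marrow of male C57BL/6J mice aged 10 weeks. They were cultured for 1 day with stem cell factor and thrombopoietin (100 ng/mL each), transduced with a retrovirus carrying either no gene of interest (control-GFP) or full-length wild-type Pot1a, cultured for another 3 days and sorted again as GFP+ LT-HSCs. RNA of each condition was hybridized to 1 Affymetrix gene array. The vectors of both conditions express GFP, and the Pot1a transgene is driven by a retroviral vector and not by its own promoter. The number of mice per array is not given in the sources used here.

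With 1 array per condition there is no replicate check, no p-value and no standard error for any difference below, so the precision of each value is limited by the number of arrays. Values are log2 of the normalized intensity, and a difference is Pot1a minus control-GFP. Pot1a itself had a log2 intensity of 8.08 in the control-GFP array and 11.06 in the Pot1a array, a 7.87-fold difference in the direction of the labels. Over all probe sets the median was 5.73 in the control-GFP array and 5.72 in the Pot1a array. Of the 9 measured LT-HSC markers 5 were higher and 4 lower in the Pot1a array (median 0.011), with summed linear intensities of 7302 and 7717. Kit was at 11.54 and 11.66 and Slamf1 (CD150) at 8.99 and 8.90, Gata2 differed by 0.32 and Procr by -0.33, and Cd48, which the gate excludes, was at 7.59 and 7.84. Of the 17 measured markers of other blood cells and stroma 13 were higher and 4 lower (median 0.12), with summed linear intensities of 4074 and 4534. Those with high signal were Cd34 at 10.50 and 10.82 (1.25-fold higher), Pf4 at 9.73 and 9.72, Pecam1 at 9.22 in both arrays and Itga2b at 8.68 and 8.81. Ly6a (Sca-1) was not analysed here. The 8 measured markers of lymphoid and myeloid lineages lay between 4.01 and 6.04, all below the median brightness of genes. In such a sample of many cells, fewer cells of a type and less RNA per cell cannot be told apart.

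The RefSeq promoters of several members hold matches to the p53 consensus sequence, and these are shown here for some of those members. Binding of p53 to them was not tested. The windows run from 250 bases before to 50 bases after each listed start of a gene (300 bases, build GRCm38.p6, the base at that start counted as 0). Windows were found for 28 of the 35 genes, some of which have more than 1. They were searched on both strands for the p53 consensus decamer, which reads the same on either strand, and for pairs of it with a spacer of 0 to 13 bases, the C and G of each core kept and at most 2 other mismatches in all. An exact decamer was in the windows of 11 of the 28 genes (39.3%), against 9.55% of the 27025 genes with a window, and a pair was in those of 5 (17.9%), against 4.71%. A separate list of further p53 targets, described after the members, had a decamer in 11.1% and a pair in 5.56% of its 36 genes with a window. A gene's status as a p53 target rests in part on such sites, so these shares describe the lists. The pairs are shown with the decamers in capitals:
Cdkn1a: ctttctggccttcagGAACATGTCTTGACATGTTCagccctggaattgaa
Ccng1: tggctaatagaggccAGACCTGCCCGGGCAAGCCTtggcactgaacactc
Rps27l: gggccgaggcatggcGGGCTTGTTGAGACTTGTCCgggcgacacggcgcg
Sesn1: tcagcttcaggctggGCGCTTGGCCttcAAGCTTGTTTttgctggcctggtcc
Gadd45a: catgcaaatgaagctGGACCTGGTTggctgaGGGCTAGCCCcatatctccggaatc
In GRCm38.p6 these stretches are chr17:29090913-29090962 on the plus strand for Cdkn1a, chr11:40755447-40755496 on the minus strand for Ccng1 and chr9:66946281-66946330 on the plus strand for Rps27l. The stretch of Sesn1 is chr10:41887238-41887290 on the plus strand and that of Gadd45a is chr6:67037423-67037478 on the minus strand. The adjoining pairs of Cdkn1a, Ccng1 and Rps27l have 1 mismatch each, the pairs of Sesn1 and Gadd45a 2 mismatches and spacers of 3 and 6 bases. In Cdkn1a the first decamer of the pair also forms an exact pair with a decamer 12 bases upstream of it, which starts 73 bases before the start. The Cdkn1a window belongs to the first of its 2 listed starts. Those of Rps27l and Sesn1 belong to the later of their 2 listed starts. Rps27l itself begins at 66944624 on chromosome 9 and Sesn1 at 41810574 on chromosome 10, so both pairs lie inside the gene.

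Among genes with a single exact decamer and a higher value in the Pot1a array, the sites, again in capitals, are:
Ei24: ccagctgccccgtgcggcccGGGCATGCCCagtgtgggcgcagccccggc
Ppm1d: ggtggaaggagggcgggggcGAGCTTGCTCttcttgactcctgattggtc
Mdm2: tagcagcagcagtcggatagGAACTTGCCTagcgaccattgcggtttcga
They lie at chr9:36797315-36797364 on the minus strand for Ei24, chr11:85311102-85311151 on the plus strand for Ppm1d and chr10:117710915-117710964 on the minus strand for Mdm2. The decamer of Ei24 ends at the base before the start. Aen, Polk and Trp53 have an exact decamer as well. No match says only that the letters are not in this window, and sites farther off were not searched.

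**Figure D1:**
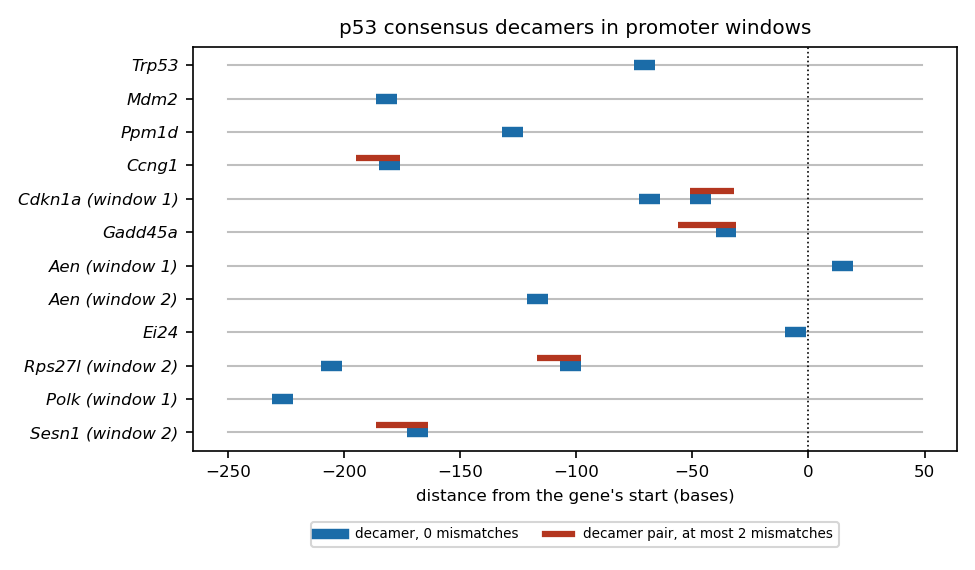
Positions of matches to the p53 consensus decamer in the promoter windows that hold one, in bases from the listed start that the window uses (dotted line). Grey lines are the windows of 300 bases, blue bars exact decamers and red bars pairs with at most 2 mismatches. Counted from the start of their own window, the pairs of Cdkn1a and Gadd45a lie nearer than those of Ccng1, Rps27l and Sesn1. For genes with several listed starts the distance depends on the start used. The windows of Aen overlap and show the same decamer.

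Most of the measured members were higher in the Pot1a array, by small amounts. Genes whose mean over both arrays was at or above the median of all genes, the brightness limit, were called brighter (11090 genes), and 28 of the 30 measured members were among them. Of these 28, 21 were higher and 7 lower in the Pot1a array, with a median difference of 0.14, whereas all brighter genes had a median of 0.0011 with 50.1% higher and 48.8% lower. The members and the fold of 1.2 were chosen with earlier results of these data known, so the shares that follow are a description. At a difference of at least 1.2-fold (0.26 on the log2 scale), 7 of the 28 were higher (25%) and 0 lower, against backgrounds of 6.85% and 8.31% of all brighter genes. Of the 7, Plk2, was below the brightness limit (a log2 intensity of 6.04) in the control-GFP array and passed it through its Pot1a value, and without it 6 of 27 were past the fold (22.2%). Without the filter on dim genes the members past this fold were again 7 higher and 0 lower, of 30, against 10.7% and 13.9% of all genes, and the median was 0.13. At 1.5-fold 0 members were past the fold in either direction, where the backgrounds were 0.397% and 0.352%. The median of the members (0.14) stood beside that of the markers of other blood cells and stroma (0.12), whose part in the members' values was not tested.

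The members lay mostly in the upper part of the range of all brighter genes, with 16 of the 28 above the 75th percentile and 2 below the 25th. The SD of the differences was 0.19 over all brighter genes and 0.22 over the 28 members, and from the 5th to the 95th percentile all brighter genes ran from -0.32 to 0.30. Above that range lay 7 members, namely Zmat3, Ei24, Eda2r, Sesn2, Ephx1, Plk2 and Ppm1d, and below it 0. Just short of 1.2-fold were Cdkn1a, Mdm4 and Perp, with differences of 0.26, 0.25 and 0.25. Within 0.1 of no difference were 7 of the 28. Across the 28 genes the difference had a Pearson correlation of 0.19 and a Spearman correlation of 0.067 with mean intensity, a description only, since all values come from the same 2 arrays.

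**Figure D2:**
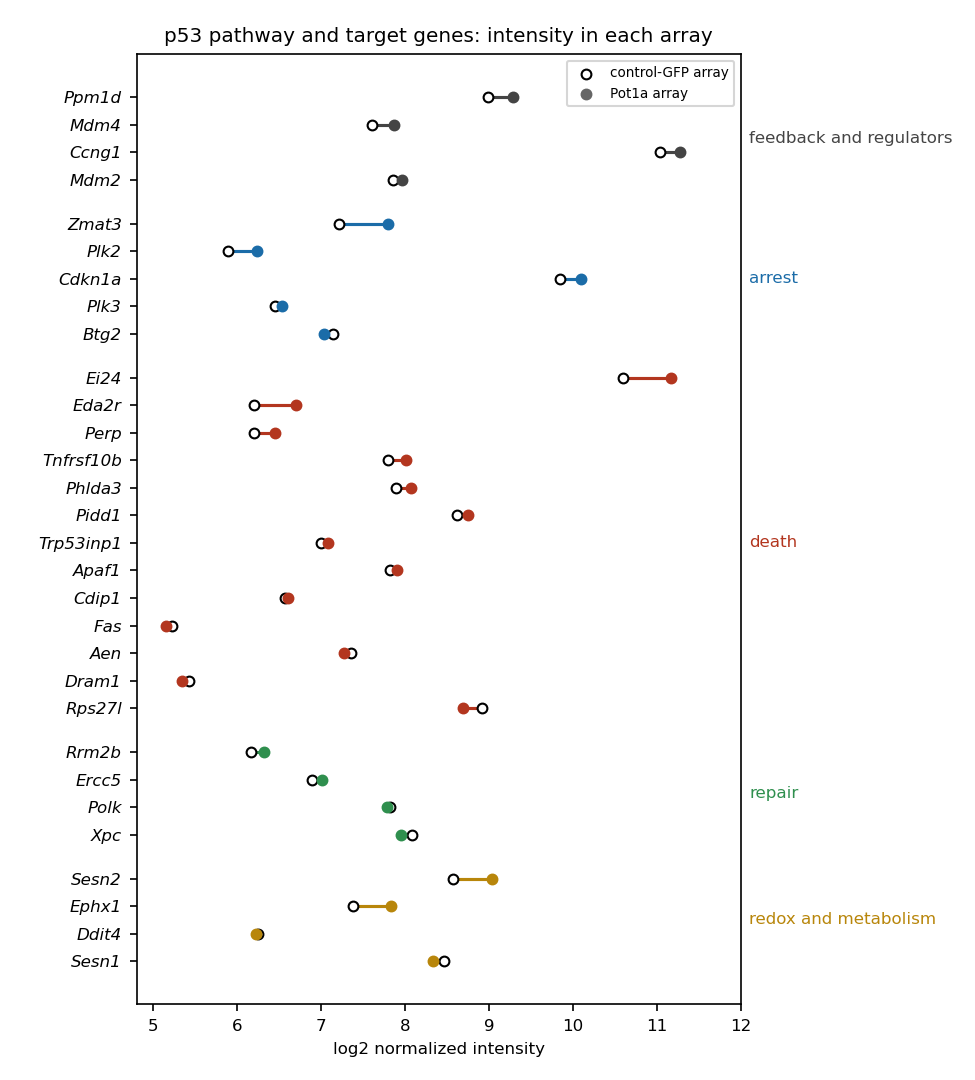
Log2 normalized intensity of the 30 measured genes in the control-GFP array (open circles) and the Pot1a array (filled circles), grouped by function and ordered by difference; levels of different genes come from different probe sets and are not comparable. The longest lines to the right are those of Zmat3, Ei24, Eda2r, Sesn2 and Ephx1, and the longest to the left is that of Rps27l.

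The 4 measured regulators that act back on p53 were each higher in the Pot1a array (median difference 0.24). Ppm1d, which encodes the phosphatase WIP1 that dephosphorylates p53 and damage kinases, was at 8.99 in the control-GFP array and 9.29 in the Pot1a array (0.30, or 1.23-fold). It ranked 533 from the highest difference among the 11090 brighter genes. Mdm4, which encodes the partner of MDM2 that covers the activation domain of p53, was at 7.61 and 7.86 (0.25). Ccng1, which encodes cyclin G1, a recruiter of protein phosphatase 2A to MDM2, was at 11.04 and 11.28 (0.24) and is one of the genes with a decamer pair in its promoter window. Mdm2 was at 7.86 and 7.97, and its difference of 0.11 was well inside the range of most brighter genes. Of the 4, only Ppm1d passed 1.2-fold, where 6.85% of all brighter genes did.

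The arrest genes had a median of 0.26 over 5 genes, 4 of them higher. Zmat3, which encodes a zinc finger protein that binds RNA, had the largest difference of all members, with 7.21 in the control-GFP array and 7.80 in the Pot1a array (0.58, just short of 1.5-fold). It ranked 45 from the highest of 11090. Cdkn1a, which encodes the CDK inhibitor p21, the best-known arrest target of p53, was at 9.84 and 10.10 (0.26, or 1.19-fold, rank 813). The polo-like kinase genes Plk2 and Plk3, both induced by stress, were at 5.89 and 6.23 (0.34) and at 6.45 and 6.54 (0.087). Plk2 was below the brightness limit, a mean of 6.04, in the control-GFP array and above it only in the Pot1a array, so its place among the brighter genes depends on the difference itself. The antiproliferative gene Btg2, which also counts as an immediate early gene, went the other way, with 7.14 and 7.03 (-0.11). The arrest genes thus were not uniform, and 2 of the 5 passed 1.2-fold, or 1 of 4 without Plk2, against 6.85% of all brighter genes.

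The genes of cell death ran from -0.23 to 0.58. Of the 11 brighter members 9 were higher, with a median of 0.13 and 2 past 1.2-fold (18.2%, against 6.85% of all brighter genes), and over all 13 measured genes 9 were higher and the median was 0.079. Ei24, which encodes a membrane protein of the endoplasmic reticulum linked to autophagy and apoptosis, was at 10.59 in the control-GFP array and 11.17 in the Pot1a array (0.58, also just short of 1.5-fold, rank 47). Eda2r, which encodes the receptor of the TNF family for ectodysplasin A2, was at 6.20 and 6.70 (0.50, rank 89). These were the death genes past 1.2-fold, and their products act inside the cell and at its surface, respectively.

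The classical death receptors and the apoptosome showed smaller differences. Tnfrsf10b, which encodes the TRAIL receptor of the mouse, was at 7.79 and 8.01 (0.22), whereas Fas was at 5.22 and 5.15 (-0.070), below the brightness at which genes were kept. Apaf1, the scaffold of the apoptosome, was at 7.83 and 7.90 (0.074), and Pidd1, the scaffold that activates caspase-2, at 8.62 and 8.75 (0.13). The difference of Apaf1 was thus about as small as that of Fas, with the opposite sign. The membrane protein gene Perp was at 6.20 and 6.45 (0.25), and Phlda3, which encodes an inhibitor of AKT at the membrane, at 7.89 and 8.07 (0.18).

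The remaining death genes were close to 0 or lower. Trp53inp1, which encodes a stress protein of autophagy and apoptosis, had linear intensities of 128 and 135 (log2 difference 0.079), and Cdip1 had log2 intensities of 6.57 and 6.60 (0.033). The nuclease gene Aen was at 7.36 and 7.28 (-0.084), and Dram1, which encodes a lysosomal protein of autophagy and was below the brightness at which genes were kept, at 5.43 and 5.34 (-0.093). Both Fas and Dram1, the 2 dim members, were thus lower in the Pot1a array. Rps27l, a ribosomal protein gene that p53 induces, had the lowest difference of all members, with 8.92 and 8.69 (-0.23). An exact decamer and a decamer pair lie in the window of its later listed start. Rps27l ranked 1217 from the lowest difference and stayed short of 1.2-fold. It is a close paralog of Rps27, and cross-hybridization between the paralogs was not tested.

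The repair genes had a median of 0.038 over 4 genes, and 0 passed 1.2-fold, where 6.85% of all brighter genes were higher and 8.31% lower. Rrm2b, which encodes the p53-inducible subunit of ribonucleotide reductase, was at 6.17 in the control-GFP array and 6.31 in the Pot1a array (0.14). Ercc5, which encodes the endonuclease XPG, was at 6.89 and 7.01 (0.12). Xpc, which encodes the sensor of damage in nucleotide excision repair, was at 8.09 and 7.95 (-0.13), and the translesion polymerase gene Polk at 7.82 and 7.78 (-0.047). The excision repair genes Ercc5 and Xpc thus lay on opposite sides of 0.

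The redox and metabolism genes split into a pair that was at least 1.2-fold higher, against 6.85% of all brighter genes, and a pair below 0. Sesn2, which encodes a leucine sensor that restrains mTORC1 and supports antioxidant defence, was at 8.57 in the control-GFP array and 9.03 in the Pot1a array (0.47, or 1.38-fold, rank 120). Ephx1, the microsomal epoxide hydrolase gene, was at 7.38 and 7.83 (0.44, or 1.36-fold, rank 144). Sesn1, the paralog of Sesn2 with a decamer pair in the window of its later listed start, was at 8.46 and 8.34 (-0.12). Ddit4, which encodes REDD1, an inhibitor of mTORC1, was at 6.24 and 6.22 (-0.019). The median over these 4 genes was 0.21, which lies in the gap between the pairs, so no member was near it.

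Members with and without an exact decamer in a promoter window had similar median differences, with 1 array per condition. The 9 brighter members with an exact decamer had a median difference of 0.11 (5 higher, 4 lower), and the 13 with a window but no exact decamer a median of 0.13 (11 higher, 2 lower). Among the 4 measured genes with a pair, Cdkn1a and Ccng1 were higher and Sesn1 and Rps27l lower. Of the 7 members past 1.2-fold, Ei24 and Ppm1d have a decamer in the window, Eda2r, Sesn2, Ephx1 and Plk2 have none, and Zmat3 has no window. Sites outside the windows were not searched, and the part of p53 binding in these values was not tested.

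**Figure D3:**
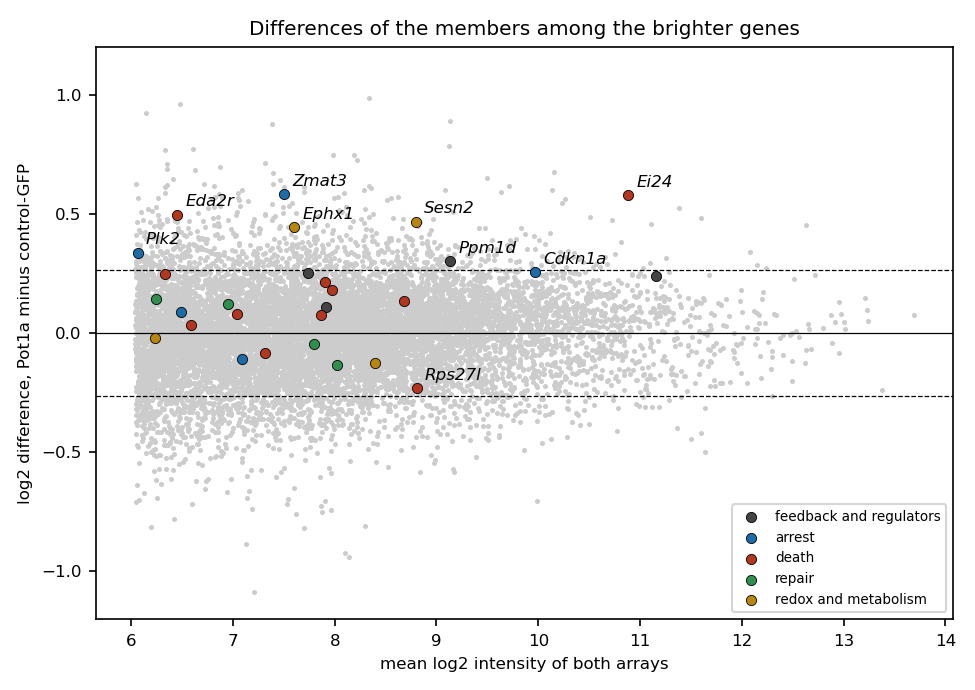
Log2 difference (Pot1a minus control-GFP) against the mean log2 intensity of both arrays for the 11090 brighter genes (grey) and the 28 members among them (coloured by function); dashed lines mark 1.2-fold, and 2 genes beyond 1.2 on the log2 scale, 1 of them Pot1a, lie outside the plot. The 7 members above the upper line are named, as are Cdkn1a just below it and Rps27l, the lowest member.

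Further p53 targets, known mostly from human cells and listed apart from the members, had a median closer to 0. Of 35 brighter genes of this list 19 were higher and 16 lower, with a median of 0.054, and 7 were at least 1.2-fold higher (20%) and 1 lower, against the same 6.85% and 8.31% of all brighter genes. The list thus had a tail of higher genes while its middle was near 0. Trim32, a ubiquitin ligase gene, was at 7.19 and 7.80 (0.61). Slc12a4, which encodes a potassium chloride cotransporter, was at 6.64 and 7.09 (0.45), but its dimmer probe set differed by -0.091. Susd6 was at 7.24 and 7.69 (0.45). Of the proapoptotic BH3-only genes, named after their values were seen, Bbc3 (PUMA) was at 6.06 and 6.46 (0.40), whereas Pmaip1 (NOXA) was dim at 5.71 and 5.60 (-0.11).

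A list of genes that activate, modify, assist or inhibit p53 had a median of 0.039. Because the list mixes opposite roles, its median does not stand for activators alone. Of its 20 brighter genes 14 were higher, and 1 was at least 1.2-fold higher (5%, against 6.85% of all brighter genes). That gene was Ppp1r13l, which encodes the p53 inhibitor iASPP, at 6.40 in the control-GFP array and 6.91 in the Pot1a array (0.50). The checkpoint kinase gene Chek2 was at 7.44 and 7.18 (-0.26) and the acetyltransferase gene Kat5 at 9.20 and 8.95 (-0.25), both just short of 1.2-fold lower. Cdkn2a, the locus of the MDM2 inhibitor ARF and of p16, was at 5.99 and 6.19 (0.21), below the brightness limit in the control-GFP array only. The kinase genes Atm and Atr, upstream of p53 in the damage response, differed by 0.11 and -0.072, but a dimmer probe set of Atr differed by 0.67, from 4.63 to 5.31. Mitotic and cell cycle genes that p53 lowers through p21 and the DREAM complex were balanced, with 7 of 14 higher, a median of 0.013 and 1 at least 1.2-fold higher (7.14%, again against 6.85%). That gene was Aurka, which encodes Aurora kinase A, at 8.48 and 8.75 (0.27). Ccna2 was at 9.79 and 10.00 (0.22) and Birc5 at 9.09 and 8.90 (-0.19). Kif23 was at 9.18 and 9.33 (0.15). The higher value of Cdkn1a, short of 1.2-fold, stood beside cell cycle genes with no common direction, and a link between them was not tested.

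Immediate early genes, which respond to handling and growth factors within minutes, were set beside the p53 targets because some of them differed as well. The list was thus chosen with earlier results of these data known, so its counts only describe it. Of 15 brighter genes 7 were higher and 8 lower, with a median of -0.0095, or 0.093 over all 17 genes without the filter. At 1.2-fold 2 of the 15 were higher (13.3%) and 1 lower (6.67%), against 6.85% and 8.31% of all brighter genes. The MAP kinase phosphatase gene Dusp1 was at 8.69 and 9.58 (0.89) and Egr1 at 7.06 and 7.73 (0.67), while Fos was at 7.24 and 6.85 (-0.39) and Nr4a1 at 7.29 and 7.55 (0.26). The list shares Btg2 with the members, and Btg2 was lower in the Pot1a array. The part of such a response, or of a difference between the cell preparations, in the values of the p53 targets was not tested.

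**Figure D4:**
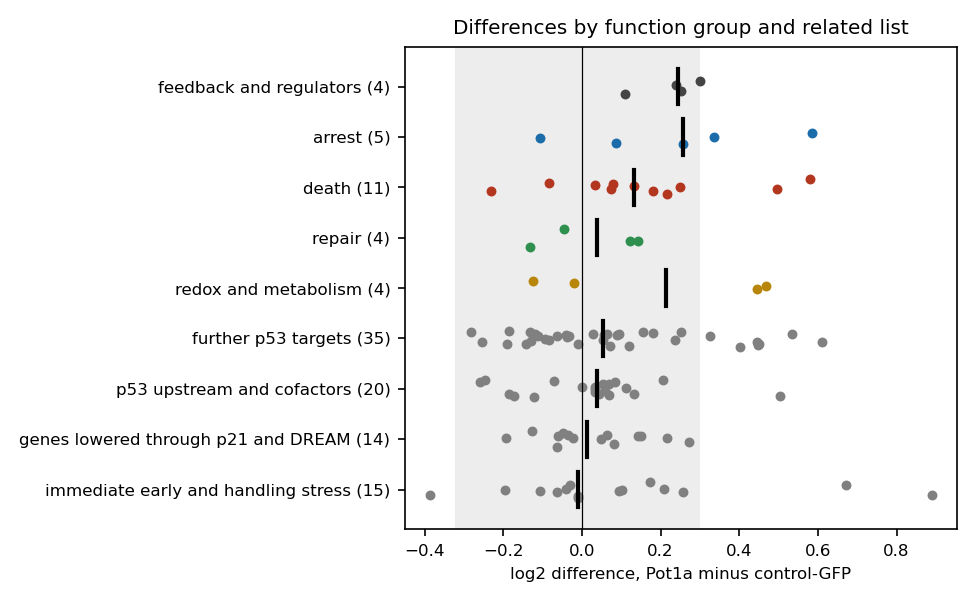
Log2 difference (Pot1a minus control-GFP) of each brighter gene (points, number of genes in parentheses) in the function groups of the members (coloured) and in related lists (grey); black bars are medians and the shaded band runs from the 5th to the 95th percentile of all brighter genes (-0.32 to 0.30). The medians of the feedback, arrest and redox groups, of 4 or 5 genes each, lie between 0.21 and 0.26. That of the death group, the largest with 11 genes, is 0.13, and those of repair and of the related lists lie between -0.0095 and 0.054.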

How the data were processed

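RNA was measured on 1 Affymetrix gene array for control-GFP LT-HSCs and 1 for LT-HSCs transduced with Pot1a. The authors deposited a normalized intensity, not log-transformed, for each of 34365 probe sets. The paper's methods describe only the arrays of aged cells, for which they name RMA and quantile normalization of log2 values in Expression Console. The processing of the present pair of arrays is not given in the sources used here, and whether values were centred remains unknown. RMA and quantile normalization compress small differences and give both arrays a common distribution. No detection calls were used.

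Log2 was taken of each intensity. Symbols came from the platform annotation, updated by Entrez ID (23328 of 23521 probe sets with 1 symbol matched RefSeq genes of GRCm38.p6). Probe sets with several symbols (1820) or none (9024) were not named. The probe set with the highest mean stood for a gene. The filter used the mean of both arrays, and 362 of the 11090 genes kept, Plk2 and Cdkn2a among them, were below the limit in 1 array. Promoters came from RefSeq (GRCm38.p6).

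The members, lists, fold of 1.2 and alternatives were chosen with earlier results of these data known. Named genes are all members, Pot1a, up to 4 genes with the largest difference in each related list, and gate and bright markers; exceptions are stated, and 1 gene of the further p53 targets is not reported here by name. Atm, Atr, Bbc3 and Pmaip1 were added after their values were seen. With 1 array per condition, the gene set enrichment of the methods was not run. The steps were tested on simulated data and run in Python 3.11.15 with pandas 2.3.3 and numpy 2.4.6, the loess with statsmodels 0.14.6 and the plots with matplotlib 3.10.9.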

Additional observations from a re-analysis of the deposited data

How the results depend on the processing

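No paired analysis was possible because there is 1 array for control-GFP and 1 for Pot1a, and none could be left out. The median difference of the 28 brighter members (0.14) was 0.13 without a filter, 0.18 with a filter at the 75th percentile (13 members), 0.15 after a loess correction (fraction 0.3) for how differences vary with mean expression and 0.12 without the 3 highest members (Zmat3, Ei24 and Eda2r). Of the 28 brighter members 7 were at least 1.2-fold higher and 0 at least 1.5-fold. With the filter at the 75th percentile 3 of 13 were past 1.2-fold (23.1%, against 5.88% of all genes kept). Leaving out the 3 highest members, all past 1.2-fold, had to lower the count to 4 and could not raise the median. After the trend correction the count was 8 of 28 (28.6%, against 7.15%). Perp (0.27) then passed the fold too and Cdkn1a (0.23) again did not. The difference of Pot1a was 2.96 after that correction. Averaging probe sets could not change the value of a member, since each had 1 probe set. Centring on the median shifted every value by only 0.0011, too little to change the sign of a member. With the trend correction 1 of the 28 brighter members changed sign, namely Ddit4, which turned to 0.0063. The median of the immediate early genes turned to 0.0075 with that correction and to 0.093 without a filter. Decamer pairs were in 5 of the 28 genes with a window (17.9%, against 4.71% of all genes with a window). With at most 1 mismatch allowed they were in 3 (10.7%, against 0.718%). With a spacer of 0 they were in 3 as well (10.7%, against 0.392%). Without Plk2, an alternative chosen after seeing the data because that gene was below the brightness limit in the control-GFP array, the median was 0.13 and the count 6 of 27. The signal over background of such dim genes is unknown.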
